A study of Mus musculus with 19 samples.

Results

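Protein-coding transcripts with a long internal exon were followed through the short-read and long-read libraries of mouse neural progenitor cells. A transcript was taken when GENCODE M21 lists it as protein coding with 3 or more exons and a longest internal exon, one that is neither first nor last, of 1000 bp or more. Of the 150173 transcripts quantified in the ladder files, 2234 met this rule, and they came from 1154 genes and 1242 distinct exons. They are called long-exon transcripts here. Set beside them are 38240 coding transcripts of 3 or more exons whose internal exons are all under 300 bp, called short-exon transcripts. The rule used the annotation alone and no measured value, but it was chosen with earlier results of these data known.

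Most internal exons of mammals are far shorter, and an exon of this size is usually a block of coding sequence that holds a large part of a big protein. N6-methyladenosine (m6A), which the Mettl3 and Mettl14 complex writes into mRNA, is known to be found more often in long internal exons and near stop codons than in short exons, where exon junction complexes keep the writer away. Reader proteins such as Ythdf2 bring m6A-bearing mRNAs to decay.

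Neural progenitors came from the embryonic mouse cortex, either with intact Mettl14 (wild type, WT) or with its conditional knockout (KO), and were grown in FGF2 and EGF, each at 20 ng/ml, with heparin and B27 on Matrigel. The labels name no Cre line, no embryonic day and no source of each replicate, so p-values may measure technical spread alone. Ladder libraries, 4 WT and 4 KO, were made from mRNA parted by length into 7 bands and read as pairs of 75 bp. Standard libraries, 3 of WT cells alone, were not parted and were read from a single end over 50 bp, and nanopore sequencing, of RNA itself (native) or of direct cDNA, used 2 replicates for each genotype and chemistry, pooled in 1 assembly each.

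Total estimated counts lay between 103752444 and 126921887 in the WT ladder libraries, between 104899560 and 118197946 in the KO ladder libraries and between 12084507 and 13987929 in the standard libraries. Mettl14 stood at 6.63 to 8.89 TPM in WT and 1.70 to 2.61 TPM in KO ladder libraries, without overlap. The 7 neural progenitor markers, led by Fabp7 and Vim, summed to 5328 to 6796 TPM in WT and 3754 to 4242 TPM in KO libraries. Nes alone of this list was higher in every KO library, at 16.2 to 30.7 and 37.1 to 69.8 TPM, while Sox2, Pax6, Hes1 and Hes5 overlapped. Markers of neurons summed to 11.8 to 13.9 TPM in WT and 4.04 to 6.25 TPM in KO, those of the oligodendrocyte lineage to 378 to 595 and 599 to 886 TPM, and those of astrocytes to 126 to 188 and 97.5 to 145 TPM. The astrocyte sum followed Aldh1l1, at 91.2 to 148 TPM in WT and 36.1 to 58.2 TPM in KO, while Gfap, Aqp4 and S100b were higher in every KO library, Gfap at 28.2 to 35.1 and 48.7 to 74.2 TPM. Microglial, endothelial and fibroblast markers each summed to under 1 TPM in every library. Within the oligodendrocyte lineage, Pdgfra stood at 9.51 to 14.6 TPM in WT and 0.538 to 0.719 TPM in KO, and Olig1 at 265 to 391 and 483 to 718 TPM. The Y-linked Ddx3y lay at 0 to 0.00450 TPM in WT and 0.559 to 0.869 TPM in KO libraries. The sex-linked Xist lay at 5.92 to 9.69 TPM in WT and was lower but still present in KO libraries, at 1.97 to 2.93 TPM. Sex and genotype thus cannot be told apart, and 68 of the long-exon transcripts lie on X. The part of these marker differences in the results below was not tested, and in bulk RNA fewer cells of a type cannot be told apart from less RNA per cell.

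The letters of the exons were read from the GENCODE M21 transcript sequences, on the strand of the transcript, with coordinates of build GRCm38. Windows of 160 bases from the long exons of 7 transcripts are printed below, chosen after their values were seen because the transcripts span the range of responses, and each is a window with the most GGACT in its exon. They come from exon 4 of Emilin1, exon 12 of Kif26a, exon 11 of Setd1b, exon 11 of Spen, exon 5 of Map1b, exon 8 of Ncan and exon 6 of Phldb1. GGACT, a common form of the sequence in which m6A is written, is in capitals. Only the transcript strand was searched. The transcripts of Emilin1, Kif26a, Setd1b, Spen and Map1b rose in KO cells, that of Ncan passed no threshold, and that of Phldb1 fell. Another Phldb1 transcript, rare in WT, holds the same window and gained against the rest of its gene (edgeR's test of transcript usage, adjusted p = 0.0016). The change of that transcript itself between genotypes did not pass with any library left out (edgeR, adjusted p = 0.072 to 0.29).
Emilin1, chr5:30917731-30917890, plus strand: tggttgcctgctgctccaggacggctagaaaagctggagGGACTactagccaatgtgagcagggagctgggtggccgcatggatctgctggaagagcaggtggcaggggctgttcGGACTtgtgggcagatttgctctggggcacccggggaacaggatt
Kif26a, chr12:112176916-112177075, plus strand: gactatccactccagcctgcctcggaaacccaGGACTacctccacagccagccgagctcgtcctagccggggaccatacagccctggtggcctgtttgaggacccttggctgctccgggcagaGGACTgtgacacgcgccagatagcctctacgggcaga
Setd1b, chr5:123160154-123160313, plus strand: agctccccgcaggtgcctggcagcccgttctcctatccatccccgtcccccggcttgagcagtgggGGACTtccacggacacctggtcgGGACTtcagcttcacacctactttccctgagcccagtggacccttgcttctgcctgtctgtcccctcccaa
Spen, chr4:141479164-141479323, minus strand: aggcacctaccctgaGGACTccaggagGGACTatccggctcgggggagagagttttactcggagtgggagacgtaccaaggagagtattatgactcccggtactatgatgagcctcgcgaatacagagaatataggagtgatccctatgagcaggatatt
Map1b, chr13:99431110-99431269, minus strand: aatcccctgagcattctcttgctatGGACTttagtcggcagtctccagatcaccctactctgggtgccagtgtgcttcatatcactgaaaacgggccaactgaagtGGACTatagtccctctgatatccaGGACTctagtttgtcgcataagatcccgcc
Ncan, chr8:70107943-70108102, minus strand: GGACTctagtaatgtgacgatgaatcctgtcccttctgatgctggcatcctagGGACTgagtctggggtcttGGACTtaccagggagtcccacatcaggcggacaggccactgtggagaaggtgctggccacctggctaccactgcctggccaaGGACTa
Phldb1, chr9:44715575-44715734, minus strand: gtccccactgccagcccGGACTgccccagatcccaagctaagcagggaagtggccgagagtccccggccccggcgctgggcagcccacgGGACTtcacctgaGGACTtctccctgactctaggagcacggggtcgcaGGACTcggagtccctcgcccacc

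These windows hold 2 GGACT each in Emilin1, Kif26a, Setd1b and Spen, 3 in Map1b and 4 each in Ncan and Phldb1. They were picked for their motif and are not typical: of 14301 windows of 160 bases laid over the long exons, 15.5% held at least 1 GGACT and 1.34% held 2 or more. Windows laid over whole short-exon transcripts gave 15.8% and 1.45% of 469642. The motif was thus about as dense in both classes, at a mean of 1.13 per kb of long exon, 1.10 per kb in the rest of the same transcripts and 1.2 per kb in the longest internal exon of short-exon transcripts. What differs by construction is the distance to a splice junction. A GGACT at least 100 bases from both ends of the longest internal exon was present in 74.7% of long-exon transcripts and in 1.39% of short-exon transcripts, whose exons have few such bases. Ncan and Phldb1 carry 5 GGACT each in exons of 1209 and 1352 bp, and Emilin1 has as many in 1926 bp.

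The longest internal exon measured 1504 bp in the median, from 1000 to 17106 bp, and filled 33.0% of its transcript in the median. Transcripts were 4992.5 bp long in the median with 12 exons. In 1534 of the 2234 the exon was wholly coding, and in 18 it held no coding base. The exon was exon 2 in 659 and the last but 1 in 417, and 140 transcripts had more than a single exon of this size. The median GC content was 50.8%, against 50.6% in short-exon transcripts.

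In WT ladder libraries 636 long-exon transcripts reached 1 TPM and 73 reached 10 TPM. The highest per length were those of Ncan, which encodes neurocan, a chondroitin sulfate proteoglycan of brain matrix, at 129 TPM, Ptprz1, which encodes a receptor tyrosine phosphatase of radial glia, at 69.8 TPM, and Ndufv3, a subunit of respiratory complex I, at 59.3 TPM. Nisch stood at 40.1 TPM, the matrix gene Fbln2 at 36.9 TPM and the transcription factor gene Zeb1 at 36.4 TPM. Of these 6 transcripts, those of Ptprz1 and Ndufv3 fell in KO cells to 28.9 and 34.8 TPM and that of Fbln2 rose to 71.4 TPM. Those of Ncan (105 TPM), Nisch (50.7 TPM) and Zeb1 (35.5 TPM) passed no threshold. The Ptprz1 gene changed by -1.47 on the log2 scale. The Ndufv3 gene changed by -0.22 and did not pass with any library left out (edgeR, adjusted p = 0.064 to 0.47). Long-exon transcripts took 40.0% ± 6.5 of the Ndufv3 counts in WT and 25.8% ± 4.2 in KO (SD, n = 4 each), without overlap.

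Loss of Mettl14 was accompanied by more rises than falls among long-exon transcripts. Of the 2234, 1590 passed the filter on low counts and 644 did not, 157 of them at 0 in all 8 ladder libraries. In edgeR's quasi-likelihood test of KO against WT, with p adjusted by Benjamini and Hochberg over all 59136 transcripts tested and a threshold of 0.05, 451 of the 1590 (28.4%) rose and 177 (11.1%) fell. Over all transcripts tested, 37.3% were called, 18.2% as rises and 19.1% as falls. Short-exon transcripts gave 20.6% rises and 16.3% falls. Weighted to the length classes of the long-exon transcripts, these became 18.9% and 19.1%, and weighted to length and abundance 18.2% and 19.3%. The median log2 change was 0.26 for long-exon transcripts, 0.05 for short-exon transcripts and -0.06 for all tested.

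In 497 long-exon transcripts every KO library lay above every WT library and in 174 every KO library lay below, 42.2% together against 39.3% of all transcripts tested. Scaling moved the balance of the calls. With offsets for GC content and length, which shifted the median of all transcripts by -0.11 on the log2 scale, 365 rose and 232 fell, so that rises made up 61.1% of the calls in place of 71.8%. Under the same offsets rises made up 46.4% of the calls of short-exon transcripts in place of 55.7%. Medians were then 0.09 for long-exon and -0.05 for short-exon transcripts. Library totals of coding transcripts alone shifted the median of all by -0.11 too, with medians of 0.15 and -0.06. The sign of the short-exon median thus depended on the scaling.

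The excess of rises was seen in transcripts with internal exons of intermediate size as well. In bins of the longest internal exon, rises made up 19.9% under 150 bp, 21% from 150 bp, 20.8% from 200 bp, 24.0% from 300 bp, 29.1% from 500 bp and 25.5% from 750 bp. From 1000, 1500 and 2000 bp they were 28.7%, 29.2% and 29.8%, and from 3000 bp 23.5% of 187. Falls made up 15.6% to 17.1% in the 3 bins under 300 bp, 12.2% to 14.6% in those between 300 and 1000 bp, and 7.78% to 13.9% above. Transcripts just inside the limit of 1000 bp and just outside it had like values: within 100 bp above it 27.0% of 259 rose and 13.9% fell, and within 100 bp below it 27.7% of 292 rose and 13.7% fell.

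**Figure D1:**
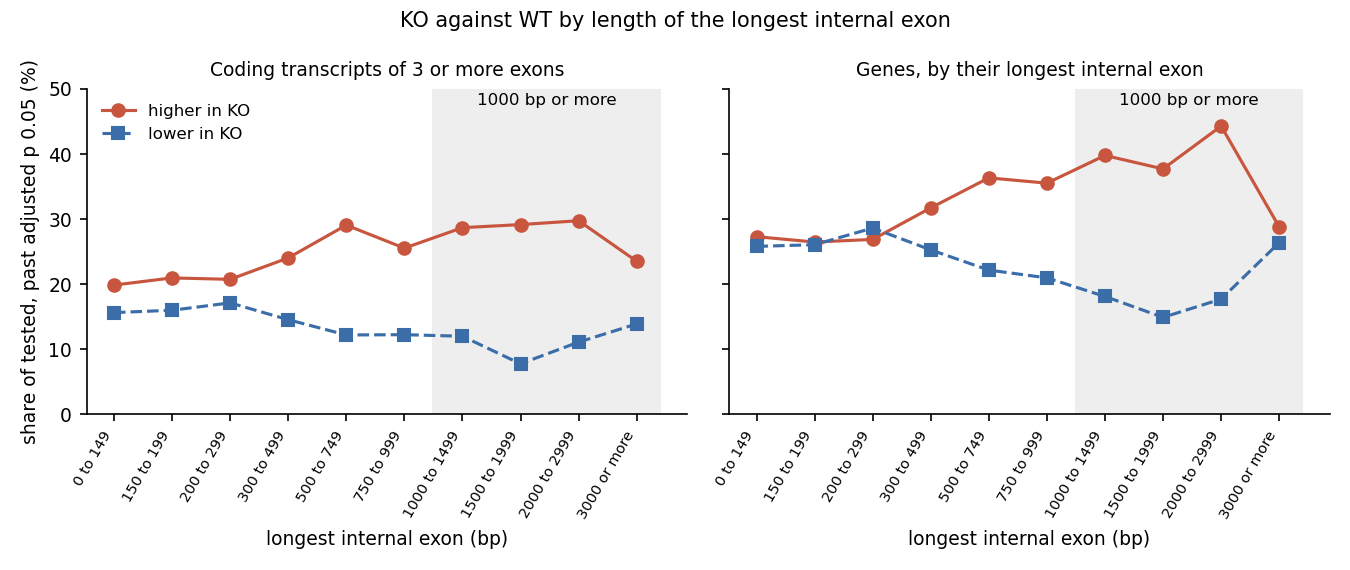
Share of tested coding transcripts (left) and of genes (right) that rose (circles) or fell (squares) in KO against WT ladder libraries, in percent, by the length of the longest internal exon in bp, with 1000 bp or more shaded. Among transcripts rises go from 19.9% under 150 bp to 29.8% from 2000 bp and stand at 23.5% from 3000 bp.

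The classes were also compared at like transcript length. At 2 to 3 kb 40.6% of 143 long-exon transcripts rose against 24.2% of short-exon transcripts, at 3 to 4 kb 29.4% against 18.1%, at 4 to 6 kb 27.5% against 20.3%, at 6 to 8 kb 28.7% against 17.2%, and from 8 kb 22.9% against 16.9%. Falls were fewer among long-exon transcripts in each of these 5 classes, from 9.09% against 15.8% at 2 to 3 kb to 10.3% against 21% from 8 kb. Under 2 kb there were 19 long-exon transcripts, of which 8 rose and 4 fell (21.1%), against 20.2% rises and 14.8% falls among short-exon transcripts. Long end exons were read among the short-exon transcripts. With a first exon of 1000 to 2000 bp 28.7% of 289 rose and 20.4% fell, a share of rises like that of long-exon transcripts, and with a first exon of 2000 bp or more 21.1% of 95 rose and 41.1% fell. With a last exon of 1000 to 2000 bp 22.9% of 4164 rose and 17.1% fell, and with one of 2000 bp or more 19.7% of 4265 rose and 20.1% fell.

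Since transcripts of a gene share exons, kallisto divides reads among them by model and a value for a single transcript is less sure than the sum over its gene. Summed by gene, 383 of 991 genes with a long-exon transcript rose (38.6%) and 182 fell (18.4%), where 53.6% of all 18684 genes tested were called, 26.4% as rises and 27.3% as falls. Genes whose coding internal exons are all under 300 bp rose in 26.8% and fell in 27.1%. From 3000 bp of exon, however, 28.8% of 125 genes rose and 26.4% fell. Of the 451 long-exon transcripts that rose, the gene rose in 386, passed no threshold in 61 and fell in 4. Of the 177 that fell, the gene fell in 122, passed no threshold in 42 and rose in 13. With the most abundant transcript of each gene alone, 34.8% of 939 rose and 12.1% fell, against 24.6% and 18.3% among short-exon transcripts.

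Within the class, abundance went with the share called. Above an average of 4 CPM (estimated counts scaled by TMM to a common library size) 36.0% of 820 rose and 82 fell, and below 1 CPM 17.9% and 11.4% of 447. Where the exon filled at least 50% of the transcript 34.2% rose, and where it filled under 25% 24.5% rose. Transcripts of 3 to 9 exons rose in 35.0%, those of 10 to 19 in 27.1% and those of 20 or more in 21%. Exon position gave 30.2% for exon 2, 26.3% for middle exons and 35.2% for the last but 1. By GGACT density of the long exon, rises made up 25.8% under 1 per kb, 31.2% from 1 to 2, 29.7% from 2 to 3 and 38.5% of 65 from 3 per kb. Falls made up 11.5%, 10.8%, 9.88% and 12.3% in the same order. Mean density was 1.26 per kb in those that rose, 1.10 in those without a call and 1.11 in those that fell. The median GC content of the long exon was 55.5% in those that rose, 52.4% in those without a call and 51.8% in those that fell. These splits overlap one another and are given as descriptions without a test. Those by exon share, exon number, position and GGACT density were not read among short-exon transcripts, so they may not be particular to the class.

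As a share of all estimated counts, long-exon transcripts took 2.55% ± 0.28 (SD, n = 4) in WT and 3.07% ± 0.28 (SD, n = 4) in KO ladder libraries, and the ranges of 2.29% to 2.86% and 2.68% to 3.34% overlapped. Against short-exon transcripts of the same length the genotypes parted. At 2 to 3 kb long-exon transcripts took 0.910% ± 0.071 of the counts of both classes in WT and 1.33% ± 0.073 in KO, at 3 to 4 kb 2.77% ± 0.14 and 3.97% ± 0.096, at 4 to 6 kb 11.7% ± 0.12 and 14.4% ± 0.30, and at 6 to 8 kb 29.2% ± 0.32 and 31.9% ± 0.23 (SD, n = 4 each). In these 4 classes every KO library lay above every WT library. From 8 kb the values were 46.6% ± 1.1 and 47.6% ± 0.75, with overlap.

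**Figure D2:**
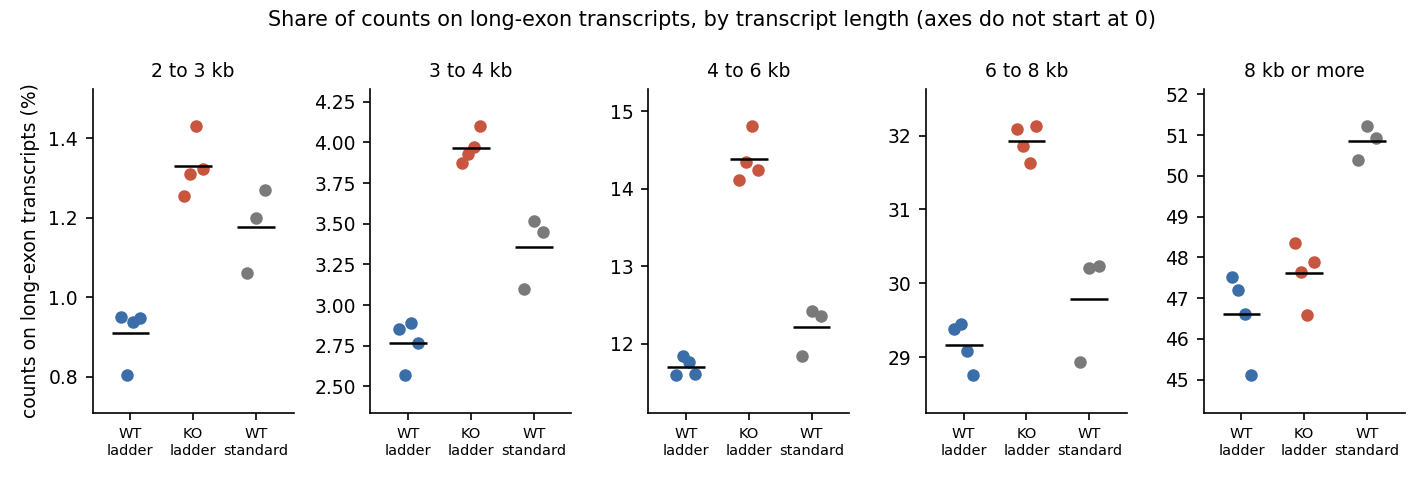
Share of long-exon transcripts in the estimated counts of long-exon and short-exon transcripts together, in percent, by class of transcript length, for each WT ladder, KO ladder and standard WT library (points) with the group mean (line), on axes that do not start at 0. KO ladder libraries lie above WT ladder libraries in the 4 classes from 2 to 8 kb and overlap them from 8 kb.

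The largest rises among well-measured members were in genes of very different roles. Emilin1, a glycoprotein of elastic fibres, held 6.18, 2.48, 8.89 and 7.32 CPM in the 4 WT libraries and 63.9, 79.5, 90.2 and 76.8 CPM in the 4 KO libraries. Every KO value lay far above every WT value, a log2 change of 3.64 ± 0.37 (SE, adjusted p = 0.00025, edgeR). Kif26a, an atypical kinesin, stood at 1.40 to 1.63 CPM in WT and 14.7 to 17.2 CPM in KO libraries (log2 change 3.38 ± 0.13, adjusted p = 4.0e-06). Its 4 KO values lay close together and did not overlap those of WT.

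Maml3, a coactivator of Notch, was at 0.692 to 0.986 CPM in WT and 12.7, 13.1, 13.9 and 15.7 CPM in KO libraries, a log2 change of 4.06 ± 0.16 (adjusted p = 4.5e-06). Bcl9l, a coactivator of beta-catenin, went from 4.83, 10.7, 11.5 and 8.07 CPM to 61.4, 58.4, 61.5 and 55.2 CPM (2.75 ± 0.26, adjusted p = 0.00014). Both belong to nuclear arms of signalling pathways, and neither showed overlap between genotypes. Perm1, known in muscle as a regulator of mitochondrial genes, rose from a mean of 0.279 to 10.1 CPM, Col27a1, a fibrillar collagen, from 1.73 to 13.2 CPM, Kcnn2, a calcium-activated potassium channel, from 3.51 to 26.2 CPM, and Plekhg1 from 4.67 to 34.4 CPM. Usp54, of the ubiquitin protease family, rose from 6.19 to 53.2 CPM. For Tns1, a tensin that joins actin to focal adhesions, the member was at 0, 0, 0.248 and 0.324 CPM in WT and 24.0 to 30.8 CPM in KO libraries. The gene as a whole rose by 3.19 ± 0.15 on the log2 scale, against a fitted change of 7.56 ± 1.10 for this transcript (adjusted p = 0.0015), and the form of highest WT level with the same exon rose from 3.70 to 10.7 CPM.

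Among the largest falls, some were falls of the gene and others were exchanges within it. Pcdh9, a protocadherin, held 52.3, 51.1, 37.0 and 45.8 CPM in WT and 13.1, 8.74, 5.00 and 11.2 CPM in KO libraries. All KO values lay below all WT values (log2 change -2.29 ± 0.29, adjusted p = 0.00053), and the gene fell by 1.88. Adora1, the adenosine A1 receptor, fell from 25.2 to 7.08 CPM (-1.83), Lrrtm3, a synaptic adhesion protein, from 9.42 to 2.42 CPM (-1.96), and Smpd3, a neutral sphingomyelinase, from 7.77 to 3.11 CPM (-1.32), each with a fall of the gene.

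Btbd8 and Fam193b also fell with their genes, by 2.24 and 1.61. Qrich1 held 7.36, 6.28, 18 and 5.73 CPM in the KO libraries, so KO 3 stood apart, and the log2 change of -1.60 ± 0.40 (adjusted p = 0.016) was -2.12 without that library.

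In Rai1, Bicd2 and Phldb1 the member fell while the gene did not pass the test. The Rai1 member, whose exon 2 of 5527 bp encodes most of this transcriptional regulator, had 14.4, 5.04, 11.3 and 4.5 CPM in WT and 0 counts in all KO libraries, at least 1266-fold lower against a floor of 3 counts over the KO group. The gene changed by 0.19 ± 0.10 (adjusted p = 0.14), and a coding Rai1 transcript with no internal exon had 0 counts in WT and 8.99 to 11.2 CPM in KO. The Rai1 transcript of highest abundance, which carries the same long exon, went from a mean of 39.7 to 48.9 CPM (adjusted p = 0.17). Bicd2, a cargo adaptor of dynein, had 15.9 to 25 CPM in WT and 2.94 to 4.47 CPM in KO for the member (-2.60 ± 0.20, adjusted p = 5.1e-05). Its main transcript, which carries the same long exon, averaged 63.7 and 73.7 CPM, and the gene change was -0.21 (adjusted p = 0.14). Phldb1, a cortical microtubule anchor, had 13.2, 17.9, 14 and 13.8 CPM in WT and 4.40, 3.68, 4.01 and 3.67 CPM in KO libraries, with a gene change of -0.24 (adjusted p = 0.24).

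**Figure D3:**
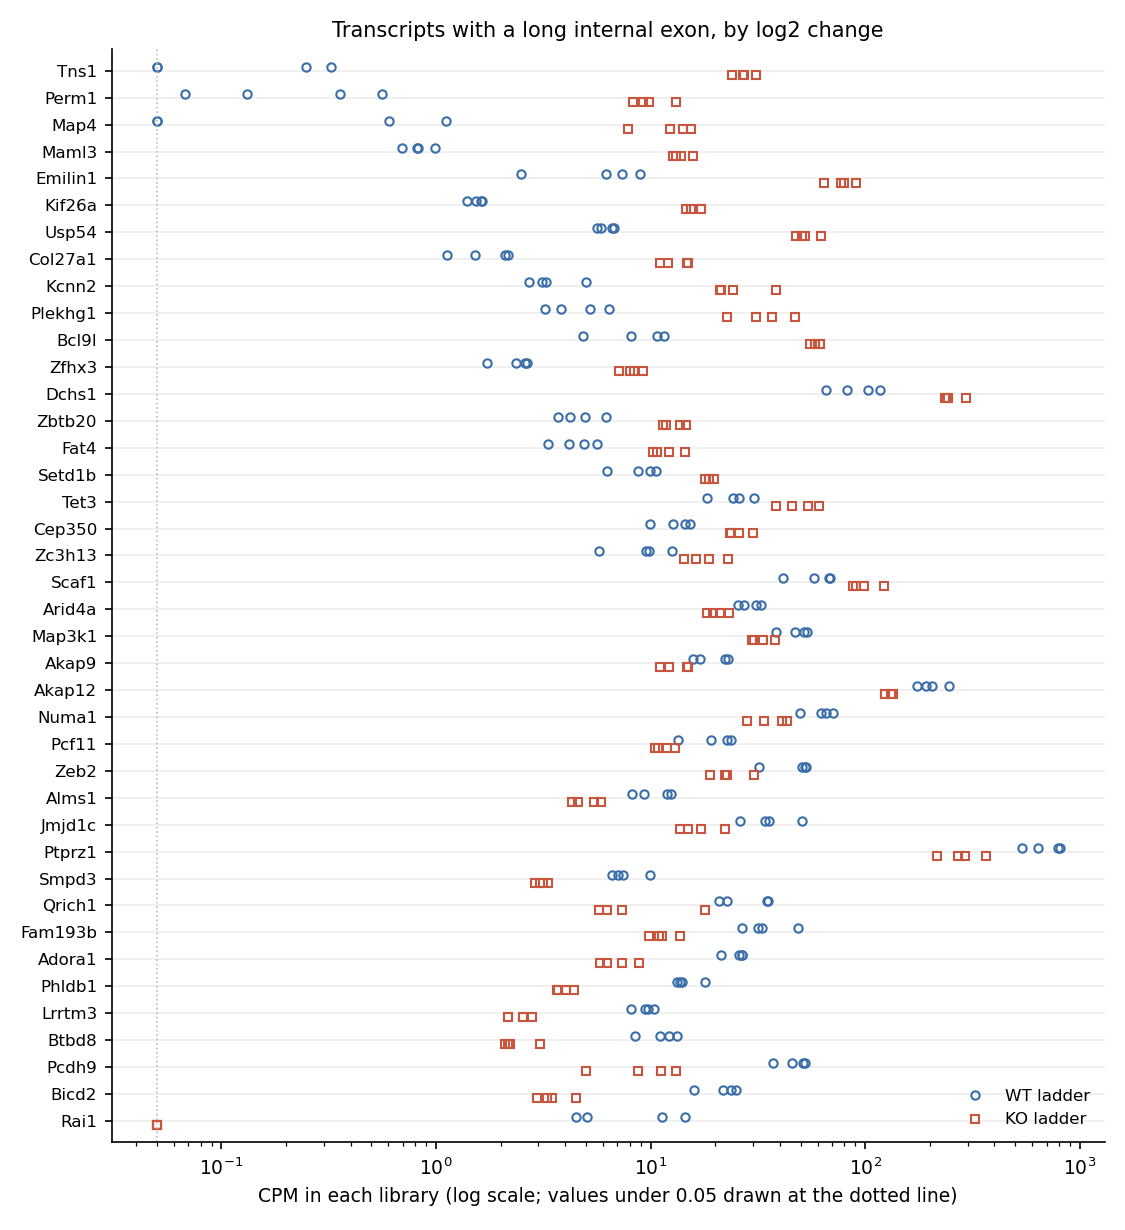
CPM of named long-exon transcripts in each of the 4 WT and 4 KO ladder libraries on a log axis, ordered by log2 change, with values under 0.05 CPM drawn at the dotted line. Emilin1 lies at 2.48 to 8.89 CPM in WT and 63.9 to 90.2 CPM in KO libraries, and Pcdh9 at 37.0 to 52.3 and 5.00 to 13.1 CPM.

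Gene lists by role were read at the level of the gene. Their counts are to be set beside the 38.6% rises and 18.4% falls of all genes with a long-exon transcript. Over all genes tested these were 26.4% and 27.3%. Genes named from the lists for their gene-level change were chosen after their values were seen. Of 41 transcription factor genes with a long internal exon, 19 rose and 6 fell. Their median log2 change was 0.37, against 0.19 over genes with a long-exon transcript and -0.03 over all genes tested. Prdm16, a zinc finger regulator of radial glia, went from 1.11 ± 0.19 to 17.1 ± 1.1 CPM (SD, n = 4 each), a log2 change of 3.95 ± 0.14 (adjusted p = 4.5e-09). Zfhx3 and Zfhx4, giant homeodomain proteins, rose by 1.75 and 4.04, the latter from 0.122 to 2.02 CPM, and Zbtb20 and Ahdc1 rose by 1.91 and 1.16. Tshz2, another zinc finger gene, went the other way, from 25.4 ± 3.9 to 4.28 ± 0.39 CPM (-2.57 ± 0.13, adjusted p = 5.5e-08). Hivep1 and Hivep3 rose by 0.62 and 0.67, and their relative Hivep2 fell by 0.97.

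Zeb2, a zinc finger repressor, again showed an exchange. Its long-exon transcript of highest abundance held 52.6, 52.8, 50.5 and 32.1 CPM in WT and 30.2, 22.3, 18.9 and 22.8 CPM in KO libraries (-1.0 ± 0.20, adjusted p = 0.0054). A second Zeb2 transcript with the same long exon rose from 7.44 to 27.1 CPM, and the gene passed no threshold (-0.20, adjusted p = 0.28).

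Signalling genes gave 11 rises and 5 falls of 31. Bcl9 and Bcl9l rose by 1.82 and 2.58, and Rnf43 and Znrf3, ubiquitin ligases that remove Wnt receptors, by 1.62 and 1.69. Lats2, a kinase of the Hippo pathway, rose from 14.8 ± 1.2 to 58.8 ± 2.8 CPM (1.99 ± 0.10, adjusted p = 4.9e-08). Map3k1, Alms1 and Rnf213 fell by 0.60, 0.62 and 0.65.

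Cytoskeletal and scaffold genes gave 28 rises and 12 falls of 61, with a median of 0.34. Palld, which bundles actin, went from 14.3 to 55.4 CPM, Nes, the intermediate filament of progenitors, from 194 to 431 CPM, Shroom4 from 8.2 to 24.1 CPM and Synpo2 from 0.400 to 3.2 CPM. Map1a, a microtubule-associated protein, held 58.6, 63.3, 49.6 and 40.8 CPM in WT and 134, 117, 111 and 117 CPM in KO libraries for its member (1.17 ± 0.15, adjusted p = 0.00057). Falls were led by Shank2, Sorbs2, Synm and Mtus2, at -1.54, -1.35, -1.33 and -1.24, and included Akap12, an anchor of protein kinase A, whose member had 175 to 246 CPM in WT and 123 to 135 CPM in KO libraries.

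RNA-processing genes gave 8 rises and 3 falls of 20. Tnrc6c, a partner of Argonaute in miRNA silencing, rose from 27.6 ± 5.2 to 72.7 ± 9.4 CPM (1.40 ± 0.15, adjusted p = 1.0e-05), and Tnrc6b by 0.52. Acin1, of the exon junction periphery, rose from 75.9 to 121 CPM, the splicing factor Rbm20 by 0.63 and Scaf1 by 0.64. Pnisr, Pcf11, a factor of transcript cleavage, and Nktr fell by 0.64, 0.55 and 0.54. Chromatin genes were divided, with 8 rises, 7 falls and a median of 0.10 over 38 genes. Tet3, a dioxygenase of 5-methylcytosine, rose by 1.10 and Setd1b, a histone H3 lysine methyltransferase, by 0.92, while Jmjd1c, Arid4b, Atrx and Kmt2a fell by 0.85, 0.69, 0.61 and 0.52.

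Genome maintenance and mitosis genes did not share the excess of rises. Of 15 genome maintenance genes none rose and 5 fell, Rif1, Rev3l, Zgrf1, Ercc5 and Parp14, by 0.81, 0.61, 0.61, 0.41 and 0.39, with a median of -0.28. Brca1, whose large exon 10 of 3315 bp encodes most of its protein, spanned 20.4 to 32.0 CPM among WT and 22.6 to 29.7 CPM among KO libraries (-0.05 ± 0.16, adjusted p = 0.84). Of 16 mitosis genes 2 rose, Cep350 by 0.89 and Nin by 0.64, and 4 fell, Kif20b by 1.38, Bod1l by 0.96, Numa1 by 0.80 and Akap9 by 0.63. The Akap9 member, with 15.8 to 22.9 CPM in WT and 11.1 to 14.9 CPM in KO libraries, passed the test in full (adjusted p = 0.028). It did not pass without KO 3, KO 4, WT 1 or WT 2 (adjusted p = 0.072 to 0.075).

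Surface and matrix genes gave 7 rises and 8 falls of 21. Dchs1 and Fat4, giant protocadherins that bind each other across cells, both rose. The Dchs1 member held 103, 117, 82.1 and 65.5 CPM in WT and 293, 236, 242 and 241 CPM in KO libraries (1.46 ± 0.19, adjusted p = 0.00057), and the Fat4 member 3.32 to 5.60 and 10.2 to 14.4 CPM (1.40 ± 0.19, adjusted p = 0.00085). Fat1, Plxna1 and Bmpr2 rose by 0.56, 0.87 and 0.62 as genes. The falls included the proteoglycan genes Cspg4 (-0.94), Acan (-1.48) and Ncan (-0.38), the adhesion receptor Adgrv1 (-1.53) and Met (-1.26). The fall of the Ncan gene was lost without KO 2, KO 3, KO 4, WT 1 or WT 2, with adjusted p up to 0.10.

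Some of the longest internal exons of well-expressed members showed small changes. The 8104-bp exon of Map1a and the 8020-bp exon of Spen, a corepressor that takes part in X inactivation and Notch signalling, were in transcripts that rose. Spen held 25.3, 23.5, 19.5 and 14.6 CPM in WT and 50.2, 50.2, 43.6 and 46.3 CPM in KO libraries (1.2 ± 0.17, adjusted p = 0.0010). The Mki67 member, with an exon of 6836 bp, had 114 to 184 CPM in WT and 113 to 168 CPM in KO (-0.16 ± 0.18, adjusted p = 0.52). Srrm2, a core splicing scaffold with an exon of 6569 bp, had 296 to 442 and 324 to 400 CPM (-0.13 ± 0.14, adjusted p = 0.52). Ankrd11, with 6518 bp, had 58.6 to 84.9 and 90.4 to 113 CPM without overlap, yet the adjusted p was 0.066 (0.38 ± 0.14). Map1b, with 6490 bp, went from 13.3 to 19.5 CPM in WT to 21.8 to 26.8 CPM in KO (0.49 ± 0.15, adjusted p = 0.030). This call was lost without KO 1, KO 2 or WT 3 (adjusted p = 0.071, 0.070 and 0.064).

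In 6 genes the long exon is known to be spliced alternatively, and of these 1 rose as a gene, Ank2, and 2 fell, Ank3 and Ptprz1. The call of the Ank2 gene (adjusted p = 0.037) was lost without KO 1, KO 2, KO 3, WT 1, WT 3 or WT 4, with adjusted p of 0.056 to 0.093. Versican (Vcan), a matrix proteoglycan, has 2 such exons, which encode its chondroitin sulfate regions. The transcript with the 5217-bp exon as its longest held 21.2 to 25.5 CPM in WT and 41.1 to 57.7 CPM in KO libraries (1.02 ± 0.13, adjusted p = 0.00065), and the transcript with the 2880-bp exon 41.7 to 73.7 and 52 to 69.3 CPM (-0.01 ± 0.18, adjusted p = 0.97). Ank2, a membrane adaptor with a neuronal giant exon of 6198 bp, had 6.93 to 10.5 CPM in WT and 10.6 to 13.3 CPM in KO libraries for its long form (0.50 ± 0.15, adjusted p = 0.030). That call was lost without KO 1, KO 2, WT 1, WT 3 or WT 4 (adjusted p up to 0.072). The long form took 11.7% ± 1.1 of the counts of Ank2 in WT and 11.9% ± 2.2 in KO (SD, n = 4 each).

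For Ank3 the form with the 7674-bp exon was rare, at 0.562 to 1.03 CPM in WT and 0.182 to 0.266 CPM in KO (-1.79 ± 0.25, adjusted p = 0.00089). Map2 forms with its 3741-bp exon took 20.2% ± 0.93 of the gene in WT and 18.6% ± 1.1 in KO, and the main such form passed no threshold (-0.22 ± 0.19, adjusted p = 0.38). The Ptprz1 form with the 3547-bp exon, which encodes its proteoglycan region, had 805, 791, 638 and 535 CPM in WT and 366, 291, 216 and 271 CPM in KO libraries (-1.28 ± 0.20, adjusted p = 0.0014). A short form without it fell from 329 to 96.8 CPM (-1.77 ± 0.16), so that forms with the exon took 67.3% ± 1.8 of the gene in WT and 73.6% ± 2.6 in KO. The ranges overlapped, from 66.0% to 70.0% in WT and from 69.8% to 75.4% in KO.

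In edgeR's test of transcript usage, which asks whether a transcript changed against the rest of its gene, 47 of 1398 gained and 49 lost (6.87% together), where 7.01% of all 40515 transcripts tested were called, 2.79% as gains and 4.22% as losses. Of 747 genes with such a transcript and another tested, 88 had a long-exon transcript past the threshold. The long-exon share of the gene was higher in KO in 50 of these 88 and lower in 32, and in 6 every counted transcript had a long exon. At 16 of the 79 with 5 CPM or more the share moved by 10 points or more. These are counts of genes, several of whose transcripts may be tested, and cannot be set beside the 7.01% of transcripts. Like counts are not given for genes without a long-exon transcript, so they may not be particular to the class.

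Zcchc2, a zinc finger protein, had the largest gain in share. Its long-exon form held 30.5%, 39.2%, 31.8% and 18% of the gene in WT and 80.6%, 72.0%, 77.7% and 59.7% in KO libraries, while the gene passed no threshold (0.25, adjusted p = 0.11). The long-exon form of Zcchc2 rose from 5.27 to 15.5 CPM, and its other main form fell by 1.07. Rusc1 went from 44.5% ± 4.9 to 70.3% ± 2.1 and Cep170, of the centriole, from 49.4% ± 4.5 to 65.7% ± 4.9. The Cep170 form that fell, from 28.2 to 13.8 CPM, is annotated for nonsense-mediated decay and has a longest internal exon of the same 1818 bp, so that the share counts coding forms and not the exon. The largest losses were in Phldb1, from 38.6% ± 11.0 to 12.6% ± 2.5, Arhgap11a, from 43.0% ± 24.5 to 17.6% ± 3.45, and Adamts7, a metalloprotease, from 38.0% ± 7.3 to 13.0% ± 2.0 (SD, n = 4 each). Arhgap11a was spread widely in WT, from 21.3% to 73.7%, and overlapped the KO range of 13.6% to 21.4%. The Adamts7 member had 0.382 to 3.88 CPM in WT and 0 counts in KO, at least 340-fold lower against the floor. The member of Map4, a microtubule-associated protein, had 0, 0, 0.603 and 1.11 CPM in WT and 7.84 to 15.4 CPM in KO libraries with a gene change of 0.25 (adjusted p = 0.13). Its call (adjusted p = 0.025) was lost without KO 2 or WT 3 (adjusted p = 0.055 and 0.056).

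**Figure D4:**
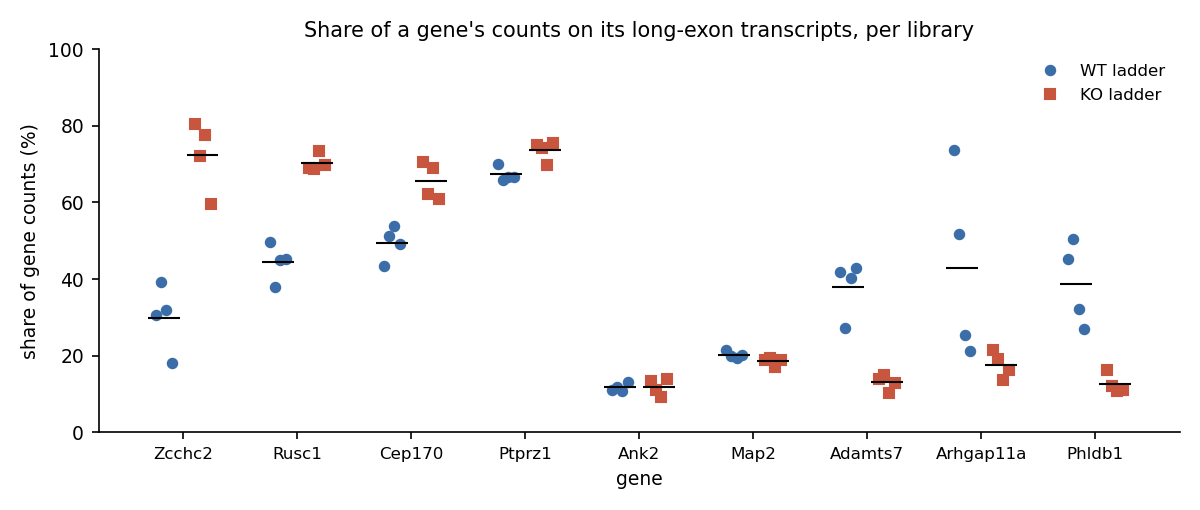
Share of long-exon transcripts in the estimated counts of their gene, in percent, for each of the 4 WT (circles) and 4 KO (squares) ladder libraries, with the group mean as a line. Zcchc2 moves from 18% to 39.2% in WT to 59.7% to 80.6% in KO libraries, and Ank2 has means of 11.7% and 11.9%.

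Long-exon transcripts took a smaller part of the WT ladder libraries than of the standard WT libraries. Over the 105882 transcripts that all files share, 2151 of them with a long internal exon, they took 3.29% ± 0.43 (SD, n = 4) of the counts in ladder and 5.79% ± 0.061 (SD, n = 3) in standard libraries, without overlap. Against short-exon transcripts of the same length the kinds of library lay closer. Long-exon transcripts took 0.910% of the counts of both classes in WT ladder and 1.18% in standard libraries at 2 to 3 kb. These shares were 2.77% and 3.36% at 3 to 4 kb, 11.7% and 12.2% at 4 to 6 kb, and 29.2% and 29.8% at 6 to 8 kb. From 8 kb they were 46.6% and 50.8%. In these classes the ranges overlapped at 6 to 8 kb alone. Of 1612 long-exon transcripts tested, 227 (14.1%) were higher in ladder libraries and 479 (29.7%) lower. Over all 48881 tested 47.4% were called, 24.0% higher and 23.4% lower (edgeR, adjusted p under 0.05). Short-exon transcripts gave 30.5% and 22.6%, but 19.5% and 27.4% once weighted to the same lengths, beside the 14.1% and 29.7% of long-exon transcripts. The order was not the same in every length class. At 2 to 3 kb 17.6% of long-exon and 29.9% of short-exon transcripts were higher and 28.3% and 17.1% lower. At 3 to 4 kb 15.4% and 23.6% were higher and 20.5% and 20.3% lower. At 4 to 6 kb 14.1% and 19.6% were higher and 26.8% and 24.9% lower. At 6 to 8 kb 18.4% and 16.5% were higher and 24.0% and 23.1% lower. From 8 kb, 6.74% of long-exon and 13.8% of short-exon transcripts were higher and 46.6% and 45.5% lower, with median log2 differences of -1.33 and -0.76. The median over all transcripts tested was 0.11 and was shifted by -0.19 with a filter at 1 CPM and by 0.22 with no filter. The WT ladder libraries are the same as in the comparison of genotypes. In WT ladder libraries short-exon transcripts took 54.1% of all counts and 70.0% of shared counts, and in standard libraries 58.5% and 58.9%. The kinds of library differ in length separation, read length, pairing, depth and the set of transcripts quantified at once, which cannot be told apart.

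The estimated counts of some single transcripts were at or near 0 in 1 kind of library and plain in the other. Since kallisto divides reads among the transcripts of a gene, a value of 0 does not show that the gene or exon was absent. Ambra1, an autophagy regulator, had 9.75 to 16.7 CPM of the shared counts in the WT ladder libraries and 0 in all 3 standard libraries, at least 230-fold higher. In the other direction Chtop, an mRNA export factor, had 0 counts in 4 WT ladder libraries and 59.3, 35.3 and 40.6 CPM in the standard libraries, at least 4321-fold lower in ladder libraries, and forms of Ankrd17 (at least 2112-fold), Chd9 (at least 2630-fold) and Phldb1 (at least 5185-fold) behaved alike. The Chtop form was at 0.430, 0, 10.4 and 2.01 CPM in the KO ladder libraries. In WT ladder libraries all long-exon transcripts together took 98.9% of the Ankrd17 counts, 27.3% of Chd9, 38.6% of Phldb1 and 1.13% of Chtop. The part of read division among forms in these differences was not tested. Nlrc5 and Slfn8, genes of immune defence, had forms at 57.8 to 89.9 and 17.7 to 26.9 CPM in ladder libraries and at no more than 0.766 and 0.286 CPM in standard libraries.

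The long-read assemblies were searched for the same exons. For each exon of a transcript at 1 TPM or more in the ladder libraries of the genotype, both ends were looked for, exact to the base, in the authors' deposited assemblies. In WT direct cDNA, 84.4% of 531 long internal exons were found in the FLAIR assembly and 85.5% in that of StringTie, against 93.6% and 92.5% of 7644 internal exons of short-exon transcripts. In WT native RNA these were 42.4% and 27.7%, against 88.6% and 83.5%. KO assemblies gave 83.4% and 84.5% of 566 in cDNA and 39.9% and 20.3% in native RNA. Short-exon transcripts are shorter, 3240 of the 7644 under 2 kb. At like length the WT native FLAIR assembly held 48.9% of long and 80.0% of short internal exons at 4 to 6 kb, and 23.6% and 68.3% from 8 kb. In WT cDNA from 8 kb FLAIR held 84.3% and 90.1%, and StringTie 93.3% and 89.1%, the other way round.

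In native RNA the share found was lower the longer the exon. In WT it was 48.8% from 1000 bp, 45.9% from 1500 bp, 34.1% from 2000 bp and 20.3% from 3000 bp with FLAIR, and 37.3%, 26.2%, 14.1% and 9.38% with StringTie. In cDNA StringTie had 84.6% to 89.1% over the same bins in WT and 83.1% to 90.3% in KO, while FLAIR had 67.2% of 64 exons from 3000 bp in WT and 83.9% of 62 in KO. With 1 assembly for each genotype and chemistry there is no replicate, and the WT and KO assemblies of native RNA by FLAIR share 22686 transcript names and are not separate evidence. An intron inside the long exon was seen in 1.13% to 1.88% of exons in the 4 WT assemblies and in 1.24% to 6.01% in KO, the last in the StringTie cDNA assembly. Among the members named above, the exons of Ncan, Ndufv3, Qrich1, Cep170 and Chtop were found in all 8 assemblies. Those of Kif26a were found in both KO cDNA assemblies and in neither from WT, and those of 12 members in none, Perm1, Maml3, Col27a1, Kcnn2, Pcdh9, Adora1, Zfhx3, Adamts7, Arhgap11a, Ank2, Ank3 and Slfn8. For Ank3 this was the 2550-bp exon of another form, and no such value is given for its 7674-bp exon.

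**Figure D5:**
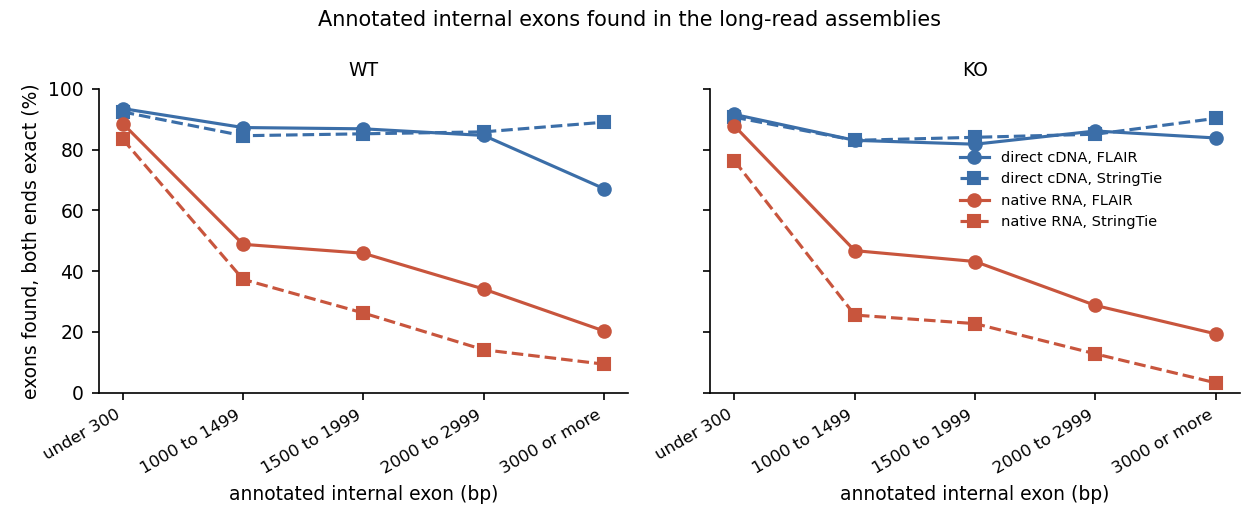
Share of annotated internal exons of transcripts at 1 TPM or more that were found with both ends exact in the long-read assemblies, in percent, by exon length in bp, for WT and KO, 2 chemistries and 2 assemblers. Native RNA falls to 20.3% (FLAIR) and 9.38% (StringTie) from 3000 bp in WT, while direct cDNA stays at 67.2% or more.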

How the data were processed

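Ladder and standard libraries were deposited as kallisto tables, per the submitters' processing notes, with an estimated count and a TPM for each transcript as the authors' values. Its version and the way in which counts of the 7 bands were joined are not given in the sources used here. Those notes also list STAR 2.5.4b, StringTie and minimap2 2.17 with no role. Long-read assemblies were deposited as exon coordinates from FLAIR and, per the file headers, StringTie.

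Estimated counts were rounded to whole numbers, filtered with filterByExpr, scaled by TMM and fitted in edgeR 4.0.16 (R 4.3.3) with robust quasi-likelihood tests. P-values were adjusted by Benjamini and Hochberg over all features of a comparison. Only the libraries of the groups compared entered a fit. CPM are counts scaled by TMM to a common library size, and levels between genes are compared in TPM. Usage was tested with diffSpliceDGE. Transcripts with no M21 entry, 11.9% to 13.4% of ladder counts, stayed in the totals. Short-exon shares were weighted to the lengths of the long-exon transcripts. The members and lists were chosen with earlier results of these data known.

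Named members were the 10 largest rises and 10 largest falls at an average log2 CPM of 2 or more without overlap, up to 2 rises and 2 falls for each list, the 6 highest in TPM, the 6 longest exons at 1 TPM, the 6 genes with the largest change of share at 5 CPM, 4 in each direction between kinds of library, and the genes with alternative long exons. 1 of these members is not reported here. Alternatives were DESeq2 1.42.0, other scaling and filters, limma 3.58.1 on log2(TPM + 0.1), other exon limits, leaving out each library and a replicate block. The total counts limit precision for rare transcripts: a floor of 3 counts over a group equals 0.00650 CPM in WT and 0.00696 CPM in KO ladder libraries and 0.0607 CPM in standard libraries, and covers counting error only.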

Additional observations from a re-analysis of the deposited data

Results flagged for a closer look

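In 148 groups of 4 libraries, the gap of the highest or lowest library to its neighbour was divided by the range of the group, and 9 passed Dixon's critical value for 4 samples. Chance gives about 1 in 20. In WT libraries the ratio was 0.830 for Adora1 (lowest 21.4 CPM, median 26.3 CPM), 0.841 for the Phldb1 transcript that fell (highest 17.9 CPM, median 13.9 CPM) and 0.891 for Zeb2 (lowest 32.1 CPM, median 51.5 CPM). It was 1 for a rare Phldb1 transcript and for a rare Rusc1 transcript, which were at 0 in 3 WT libraries and at 0.174 and 0.127 CPM in the other. For the share of long-exon transcripts at 2 to 3 kb it was 0.921 (lowest 0.804%, median 0.943%). In KO libraries it was 0.871 for Btbd8 (highest 3.06 CPM, median 2.19 CPM), 0.886 for Dchs1 (highest 293 CPM, median 242 CPM) and 0.867 for Qrich1 (highest 18 CPM, median 6.82 CPM).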

How the results depend on the processing

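The short-exon median changed sign with the scaling, between genotypes from 0.05 to -0.05 with GC and length offsets and -0.06 with coding targets only, and between kinds of library from 0.26 to -0.22 with DESeq2. In KO vs WT, transcripts, members minus comparators (long-exon minus length-weighted short-exon transcripts) gave 9.44 points more rises and -7.93 points for falls. The points for rises were 6.07 with GC and length offsets, 12.3 with limma on TPM, 6.97 with no filter, 13.5 with 1 transcript per gene and 13.9 at 4 CPM or more. Those for falls were -6.02 with DESeq2, -4.27 with limma on TPM, -10.3 with coding targets only, -5.07 with no filter and -10.4 at a mean of 1 CPM or more. Leaving out 1 library gave 8.11 to 9.70 and -7.42 to -5.94 points, with 380 to 456 rises and 136 to 190 falls.

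Falls numbered 104 with limma on TPM, 268 from 800 bp of exon and 114 with 1 transcript per gene (12.1% of 939). There were 224 rises and 82 falls from 1500 bp, 119 and 54 from 2000 bp, and 295 and 82 at 4 CPM or more (36.0% and 10% of 820). Other limits change how many transcripts are tested, so these counts alone do not measure dependence on processing. The bins from 1500, 2000 and 3000 bp held 360, 252 and 187 transcripts. Rises made up 29.2%, 29.8% and 23.5% of them and falls 7.78%, 11.1% and 13.9%, against 28.4% and 11.1% of all 1590. Short-exon transcripts gave 2367 rises and 1831 falls with exons under 200 bp and 2294 and 1432 at 4 CPM or more. With 1 transcript per gene they gave 2474 and 1839 (24.6% and 18.3% of 10042). Each of these sets is a part of the 18860 short-exon transcripts tested. The settings of 1 transcript per gene and of 4 CPM or more and the weighting by abundance were chosen after seeing the data.

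Replicate numbers did not pair the libraries (correlations of -0.0723 to 0.0947 between genotypes and -0.00610 to 0.0622 between kinds of library). With a replicate block, 410 long-exon transcripts rose and 165 fell in KO, and usage gave 46 gains and 45 losses. In WT ladder vs standard, transcripts, the replicate block gave 122 higher and 281 lower long-exon and 3436 and 2341 short-exon transcripts, and members minus comparators, points up, went from -5.44 to -2.53. Leaving out 1 library there gave -6.48 to -3.65 points. The share of counts on long-exon transcripts was 3.64%, 4.05% and 6.58% of coding counts in WT ladder, KO ladder and standard libraries, and 0.356% and 0.471% of TPM in WT and KO. The cause of these differences was not tested. Named transcripts had 1050 values under alternatives between genotypes, of which 31 lost and 13 gained a call. GC and length offsets ended the calls of Ank2, Map1b, Pcf11, Scaf1 and Zc3h13 (adjusted p = 0.25, 0.057, 0.050, 0.14 and 0.067).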
